A study of Drosophila melanogaster with 2 samples.

Results

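The binding of the GAGA factor was mapped along chromosome arm 3L of Drosophila melanogaster in the embryo-derived Kc cell line by chromatin immunoprecipitation followed by sequencing (ChIP-seq). The peaks described here are all those that the deposited peak list of the Trl ChIP sample places on 3L. They number 745 of the 3842 peaks in the list. Peaks on the heterochromatic scaffold 3LHet were left out. The study comprised 1 ChIP sample, made with the antibody KW3-Trl-D2 from untreated Kc cells, and 1 sample of input chromatin from the same cells, for which no peak list was analysed here. The labels name neither a genotype nor an age for either sample. The series text expects 2 replicates of a ChIP-seq experiment. No source used here tells if libraries were pooled into this list. All values below are therefore those of a single list, without an error between cultures, and the number of reads behind a peak is unknown.

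The GAGA factor is encoded by Trl, the Trithorax-like gene, and binds GA-rich DNA through a zinc finger. It is known for keeping promoters free of nucleosomes, for holding paused RNA polymerase at heat shock and developmental genes, and for its presence at Polycomb response elements. Its BTB domain lets molecules of the factor join, and it is known to bind elements with several neighbouring GA repeats. Arm 3L is the left arm of chromosome 3. Position 1 lies at its telomere, and its highest positions lie next to the centromeric heterochromatin.

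The arm carries Trl itself and other genes that are known from work on this factor. In the RefSeq gene table of Release 6, 3L holds 3482 genes, of which 2739 are protein-coding. Among them are the ecdysone-induced transcription factor genes Eip74EF and Eip75B, and the small heat shock genes Hsp22, Hsp23, Hsp26 and Hsp27, which encode chaperones. The Polycomb group genes Pc, E(z) and Su(z)12, the trithorax group genes ash1 and brm, and the Iroquois homeobox genes ara and caup lie there as well. In the gene order of that table, caup follows ara directly, bab2 follows bab1, and Hsp27 follows Hsp23. The peaks are given in BDGP5 (dm3) coordinates and the gene table in Release 6, so no gene was assigned to a peak, and exons, introns and start sites under the peaks were not analysed here. All positions below are 1-based positions on 3L in BDGP5.

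The 745 peaks lay between positions 128238 and 23177961. Together they covered 456.1 kb, or 1.97% of the arm up to the end of its last peak. Their mean density was 32.1 peaks per Mb, against 32.3 per Mb over the other major arms (2L, 2R, 3R and X) counted in the same way. By single arm the densities were 27.6 per Mb on 2L, 33.3 on 2R, 30.9 on 3R and 37.8 on X, so 3L stood between these values. The first peaks of the arm, from 128238 to 132814, formed a group of 4 with scores of 641.37, 2129.52, 3100 and 692.2. The last 4 peaks, between 23096729 and 23177961, had widths of 205 to 352 bp and scores of 68.41 to 209.

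Peaks on 3L were 167 to 2428 bp wide. Their median width was 526 bp, and the middle 50% lay between 406 and 750 bp. A width of 1 kb or more was found in 79 peaks (10.6%), and 56 peaks (7.52%) were narrower than 300 bp. The score is the authors' own value for each peak, deposited without a scale, and is used here to rank and describe peaks within the list. Its median was 440.2 on 3L, and the middle 50% of peaks scored between 134.7 and 1372. The lowest score was 50.75, and 139 peaks (18.7%) scored under 100. At the upper end, 61 peaks (8.19%) shared a score of exactly 3100 and 10 scored above it. The median width was 999 bp for the tied peaks and 914.5 bp for those above. The highest score, 3233.1, was the same on 3L and 3R. As the scale is not stated, a score above 3100 is not read as stronger binding than a tied one. Over the other 4 arms together, width had a median of 523 bp and the score one of 373.6, with 21.4% of peaks under 100 and 6.74% tied at 3100. With 1 list, none of these differences between 3L and the other arms was tested.

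Wide peaks on 3L were in general high-scoring ones. With the peaks divided into 4 classes of rising score, median widths were 368, 459, 597 and 827 bp. Over the 745 peaks the Spearman rho of width and score was 0.724. Both come from the same caller and reads, and the relation is given as a description. Among the 674 peaks below 3100, rho was 0.661. No peak under 300 bp reached a score of 3100, and no peak of 1 kb or more scored under 100. The wide peaks still spanned most of the score, with 213.63 as their lowest value and 30 of 79 tied at 3100.

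**Figure D1:**
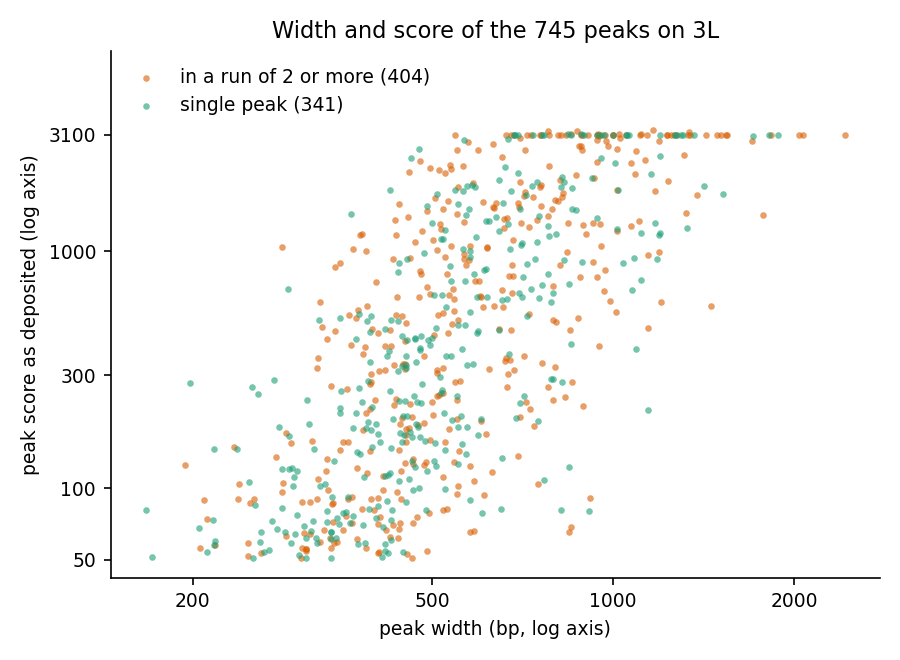
Score of each of the 745 peaks on 3L (vertical log axis, score as deposited) against its width (horizontal log axis, bp), for the 404 peaks in runs of 2 or more and the 341 single peaks. Each point is 1 peak. The points rise from narrow, low-scoring peaks to wide ones and end in the row of 61 peaks tied at 3100.

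Of the 15 peaks with the highest score, 10 scored above 3100 and 5 were the widest of the tied peaks. This order is that of the deposited score, and whether peaks above 3100 are stronger than tied ones was not tested. The highest, 1164 bp wide with a score of 3233.06, lay from 17562676 to 17563839. It was the first of a run of 6 peaks. The next, from 19784452 to 19785321, was 870 bp wide, scored 3222.27 and stood in the middle of a run of 5. A peak of 780 bp from 10849517 to 10850296 scored 3218.01, and its nearest neighbour lay 91 bp away. These 3 were followed by a peak of 1338 bp from 6935740 to 6937077, which scored 3181.63. It stood in the sparsest 1 Mb window of the arm, where the other 15 peaks scored below 3100. The remaining 6 above 3100 had scores of 3108.16 to 3135.09 and widths of 843 to 1114 bp, and lay at starts of 2191835, 2820508, 7427889, 11240459, 14543911 and 20394165. Of the 15 peaks, 12 lay in runs of 2 or more, against 54.2% of all peaks on 3L and 62.3% of the 61 tied peaks.

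The widest peak on the arm, 2428 bp from 14749159 to 14751586, was followed after 105 bp by the next widest, 2072 bp from 14751692 to 14753763. Another peak of 1277 bp ended 131 bp before them, and these 3 peaks shared the tied score of 3100. Together they covered 96.1% of the 6.01 kb from 14747751 to 14753763. The 10 widest peaks measured from 1546 to 2428 bp. Of these, 7 had the tied score and 7 lay in runs, against 38.0% and 60.8% of the 79 peaks of 1 kb or more. Among the 10, a single peak from 20341328 to 20343036 was 1709 bp wide with a score of 3063.13. The lowest score among the 10 was 1421.48, for a peak of 1777 bp from 3248436 to 3250212.

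Along the arm, the number of peaks varied 3.5-fold between full 1 Mb windows, from 16 to 56 with a median of 33 over 23 windows. The first Mb at the telomere held 39 peaks and the second held 30. The next 2 windows held 22 and 36. From 4 to 7 Mb the numbers were 18, 22 and 16 per window, followed by 32 from 7 to 8 Mb and 20 from 8 to 9 Mb. The windows from 9 to 12 Mb held 40, 33 and 39 peaks. The window from 12 to 13 Mb held 26, and the window from 13 to 14 Mb held 18. The numbers then climbed to 34, 38 and 40, and reached 56 from 17 to 18 Mb and 54 from 18 to 19 Mb. The next 4 windows held 34, 29, 41 and 24.

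The median score per 1 Mb window ran from 162.2 in the window from 5 to 6 Mb to 761.4 in the window from 22 to 23 Mb, which held 22 and 24 peaks. Across the 23 windows, the Spearman rho between the number of peaks and their median score was 0.178. Between the number of all peaks and the number of those at 3100 or above, which are part of it, rho was 0.574. In the window from 10 to 11 Mb, 33.3% of the peaks scored under 100, against 4.17% from 22 to 23 Mb. Peaks at 3100 or above numbered 10 in the window from 17 to 18 Mb and 7 from 21 to 22 Mb. None lay in the windows from 3 to 4, 8 to 9 and 12 to 13 Mb.

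**Figure D2:**
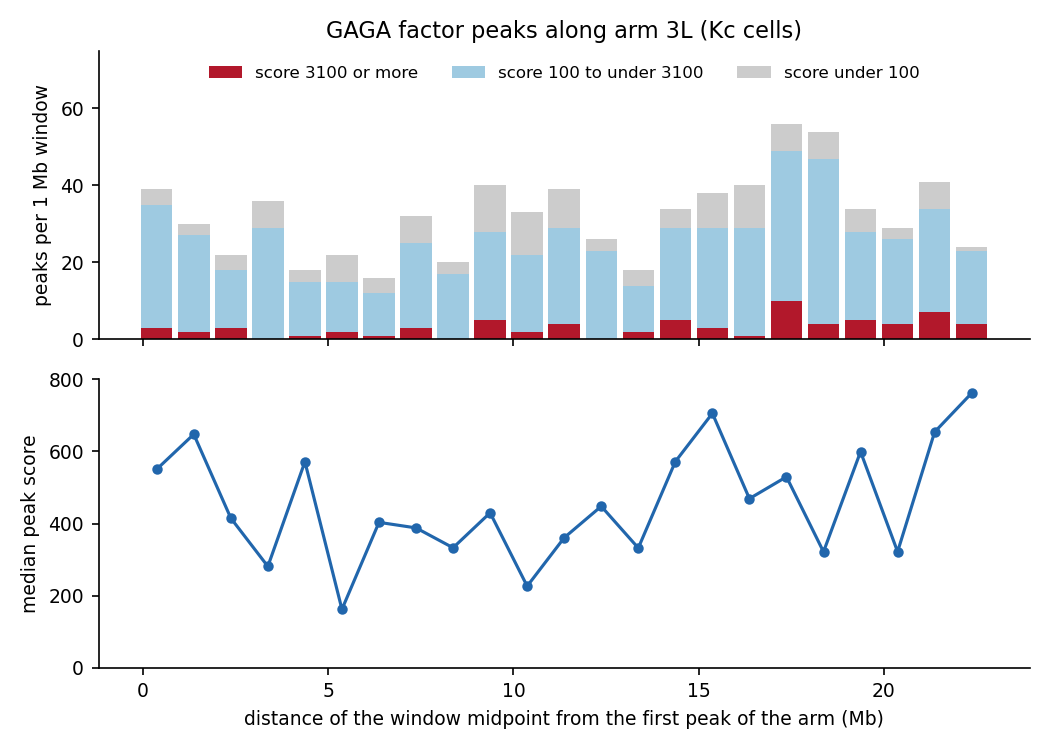
Number of peaks per full 1 Mb window of 3L (upper panel, bars divided by score) and their median score (lower panel), against the distance of the window midpoint from the first peak of the arm (Mb). The 2 tallest bars, 56 and 54 peaks, are neighbours, and the median score is lowest, at 162.2, in a window of 22 peaks.

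The outer parts of the arm, up to its last peak, are given beside its middle, without a test. The second part stops at the last peak, and the arm beyond it was not analysed. The first 2 Mb held 69 peaks, or 34.5 per Mb, and the last 2 Mb before the end of the last peak held 52, or 26 per Mb. The stretch between them held 32.5 per Mb. Median scores were 609.9 in the first 2 Mb and 622.9 in the 2 Mb up to the last peak, against 400.3 between them. Peaks under 100 made up 10.1% and 9.62% of the outer parts and 20.4% of the stretch between. On the scaffold 3LHet, which is not counted in the 745, the widths of 14 peaks had a median of 256.5 bp and their scores one of 119.9.

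At a finer scale, peaks were unevenly spread over 232 windows of 100 kb. No peak lay in 45 of them (19.4%), 42 held 1 peak, and the median was 3. The 11 windows with 10 or more peaks made up 4.74% of the windows and held 143 peaks (19.2%). Such windows numbered 7 on 2L, 7 on 2R, 10 on 3R and 17 on X. The 44 fullest windows, 19% of all, were enough to hold 50% of the peaks. The Spearman rho between the counts of neighbouring windows was 0.0947 (231 pairs), which is weak.

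A dense stretch reached from 17500001 to 18100000. Its 600 kb, 2.59% of the arm, held 68 peaks, or 9.13%. This stretch contained the 2 fullest windows of the arm, from 18000001 to 18100000 with 20 peaks and from 17900001 to 18000000 with 17. With window borders shifted by 50 kb, the window from 17950001 to 18050000 held 24 peaks. It also contained the windows from 17500001 to 17600000 and from 17600001 to 17700000, with 12 peaks each. The density was not even. Between the 2 pairs of full windows, the window from 17700001 to 17800000 held 3 peaks and that from 17800001 to 17900000 held 4. The median window of the arm held 3. Across these middle windows ran 76.5 kb without a peak, from 17757688 to 17834182. The choice of the 600 kb was made after its values were seen.

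The peaks of the 2 fullest windows were mixed in score. In the window from 18000001 to 18100000, scores ran from 57.59 to 2695.31 with a median of 300, and none reached 3100. The median of the widths of the 20 peaks was 431 bp, and they covered 8.83 kb. Its highest-scoring peak lay from 18022555 to 18023030 and was 476 bp wide. It stood alone, 3.18 kb and 3.83 kb from its neighbours. A run of 4 peaks from 18012777 to 18016276 had scores of 149.06, 312.39, 96.49 and 1539.41. A run of 3 from 18054636 to 18058272 had scores of 1381.55, 2308.89 and 950.11. In the window from 17900001 to 18000000, 2 peaks had the tied score. They lay from 17954488 to 17955792 and from 17965391 to 17966621, and the second of them closed a run of 3 whose other members scored 1280.39 and 2490.9.

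**Figure D3:**
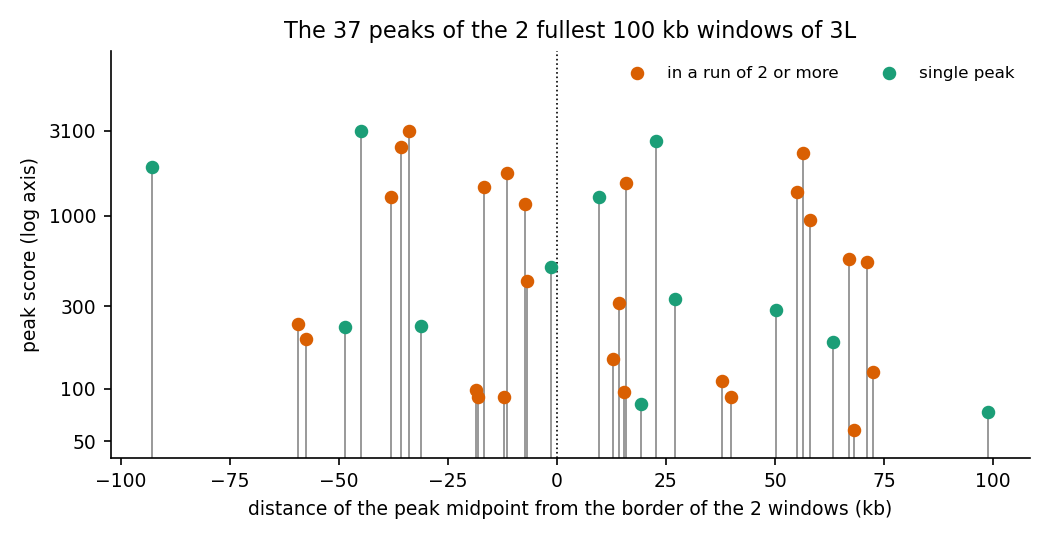
Score (log axis) of each of the 37 peaks in the 2 fullest 100 kb windows of 3L, against the distance of the peak midpoint from the border between the windows (kb, dotted line). Each point is 1 peak, and the 2 peaks tied at 3100 lie on the left of the border, none on the right.

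Other full windows differed in the scores of their peaks. The window from 21000001 to 21100000 held 13 peaks, whose median score was 2667 and whose widths had a median of 820 bp. Of these, 5 were tied at 3100, and 11 lay in 3 runs. Next to a run of 6 stood 3 tied peaks from 21016433 to 21020642, which covered 89.3% of 4.21 kb with widths of 820, 1428 and 1510 bp. The window from 18700001 to 18800000 held 12 peaks, of which 4 were tied and none scored under 100. The window from 7800001 to 7900000 held 16 peaks in 9.12 kb of covered sequence, with a median score of 375.5 and 5 peaks under 100. The windows from 10600001 to 10700000, from 600001 to 700000 and from 3000001 to 3100000 held 11, 10 and 10 peaks, and none of them contained a tied peak. Over the 187 windows with a peak, the Spearman rho between the number of peaks and their median score was 0.119.

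Gaps between neighbouring peaks of 3L ran from 1 bp to 345.8 kb, with a median of 8.38 kb over 744 gaps. Gaps under 2 kb made up 32.7% (243 gaps) on 3L, against 34.0% (1034 of 3038) on the other arms. Gaps under 250 bp numbered 95 on 3L, or 12.8%, against 13.6% on the other arms. Between 2 and 5 kb lay 11.2% of the gaps of 3L, against 9.25% on the other arms, and from 10 to 20 kb lay 9.95%, against 11.8%. These shares are of a single list and were not tested. The 1 bp gap lay inside a group of 3 peaks from 19888077 to 19891036, with scores of 2640.28, 3100 and 2238.53, which covered 95.8% of 2.96 kb. Whether the caller split single enriched regions at such short gaps was not tested.

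**Figure D4:**
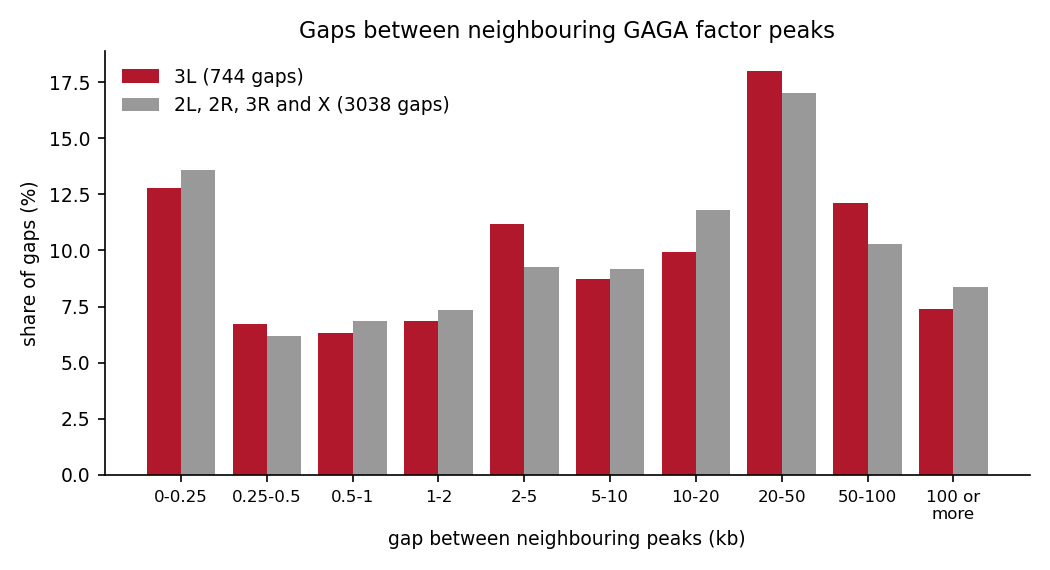
Share of gaps between neighbouring peaks (%) by gap length (kb) on 3L (744 gaps) and on 2L, 2R, 3R and X together (3038 gaps). Both sets have a high bar under 0.25 kb, with 12.8% on 3L and 13.6% on the others, and their highest bar at 20 to 50 kb, with 18.0% on 3L and 17.0% on the others.

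Joined at gaps under 2 kb, the peaks of 3L formed 502 units, of which 341 were single peaks and 161 were runs of 2 or more. The runs held 404 peaks (54.2%), against 55.2% of peaks in runs on the other arms. Of the 161 runs, 103 were pairs, 43 held 3 peaks, 9 held 4 and 6 held 5 or 6. The median run spanned 2.14 kb, of which peaks covered 70.3%. Peaks in runs had medians of 547.1 for the score and 546 bp for the width, and single peaks had medians of 330.9 and 499 bp. In the same 4 classes of rising score, 49.7%, 46.2%, 57.5% and 63.4% of the peaks lay in runs. The tied score was held by 38 peaks in runs (9.41%) and by 23 single peaks (6.74%).

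The scores of neighbours within a run were compared by rank. In the 103 pairs, both peaks fell in the same of the 4 score classes in 24 pairs and in adjoining classes in 46. They lay 2 or 3 classes apart in 33 pairs. The 4 classes were of nearly equal size, with 186 or 187 peaks each. The counts expected for unrelated peaks were not computed, so no likeness or difference of neighbours is read from them. Both peaks scored under 100 in 2 pairs, and in none were both tied at 3100. Of all peaks in pairs, 19.9% scored under 100 and 6.31% were tied. The Spearman rho between the scores of the first and the second peak of a pair was 0.0698, which is weak. In the 58 runs of 3 or more, the highest score was held by an inner peak in 22 and by a peak at the edge in 36. Of the 58 runs, 43 held 3 peaks, with a single inner peak and 2 at the edges. No preference for the edge is therefore read from these counts. A peak at 3100 or above was present in 37 of the 161 runs, and 7 runs held 2 or more such peaks.

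The 6 runs of 5 or more peaks each lay in a 1 Mb window of their own. The first, from 539256 to 546211, held 5 peaks with scores of 168.53, 221.66, 2912.93, 1770.83 and 401.41 in order along the arm. Its 2 highest-scoring peaks stood next to each other, 53 bp apart, with lower-scoring peaks on both sides. The second, from 7855292 to 7860884, held 5 peaks with scores of 64.24, 751.2, 61.82, 235.44 and 2928.5. Its highest-scoring peak closed the run. The third, from 9682912 to 9690373, held 6 peaks with scores of 58.96, 74.56, 3100, 3100, 2286.8 and 2666.59. Its first tied peak was 2035 bp wide and was separated from the second by 3 bp, and that peak from the next by 11 bp.

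The fourth of these runs, from 17562676 to 17573183, spanned 10.5 kb, more than any other run on 3L. Its 6 peaks scored 3233.06, 129.75, 1358.08, 109.66, 3100 and 215.73, so that higher and lower scores alternated. The gaps inside it, from 856 to 1695 bp, were wide, and peaks covered 45.4% of its length. It lay within the dense stretch described above. The fifth run, from 19783026 to 19787077, was the most compact, with 5 peaks in 4.05 kb, a coverage of 80.2% and gaps from 59 to 500 bp. Its scores were 107.03, 472.18, 3222.27, 184.59 and 782.75, with the highest-scoring peak in the middle. The sixth run, from 21000318 to 21008130, had scores of 1720.53, 3100, 2666.69, 3056.79, 62.5 and 3100. Its median score of 2862 was the highest of the 6 runs.

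**Figure D5:**
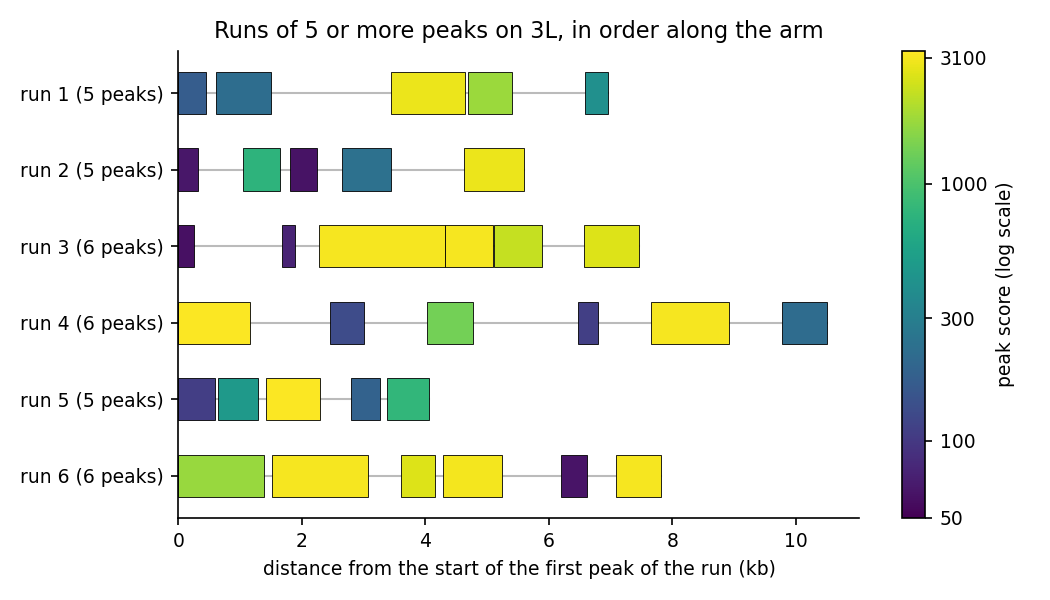
The 6 runs of 5 or more peaks on 3L, in order along the arm from top to bottom. Each block is 1 peak drawn to scale against the distance from the start of the first peak of its run (kb), coloured by score on a log scale, and the fourth run is the longest at 10.5 kb.

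The 9 runs of 4 peaks varied in score as well. A run from 9117950 to 9122170 contained 2 tied peaks and no score under 275.22. A run from 10729850 to 10733846 had a median score of 2209. By contrast, a run from 19899172 to 19903523 peaked at 903.34. The most completely covered of these runs lay from 20501027 to 20503225, where 4 peaks covered 91.5% of 2.2 kb with a highest score of 1677.

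The 71 peaks at 3100 or above (9.53% of the peaks on 3L) had a median gap of 219 kb to the next of their kind, and 7 of these gaps were shorter than 2 kb. The longest stretch between such peaks was 1.67 Mb, from 11546897 to 13221299, and contained 40 lower-scoring peaks. At the other end of the scale, 4 consecutive peaks between 9846777 and 10247693 scored under 100, and no longer unbroken series of such peaks was found.

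Stretches of 100 kb or more without a peak numbered 55 between the first and the last peak of 3L and added up to 9.67 Mb, or 41.7% of the arm. In the same way, such stretches made up 52.5% of 2L, 44.9% of 2R, 48.7% of 3R and 41.6% of X. Of the 55 on 3L, 17 were 200 kb or longer. The longest, of 345.8 kb, lay from 7428740 to 7774587. It began at one of the highest-scoring peaks of the arm, with a score of 3132.48, and ended at a peak that scored 1506.67. The next, of 328.5 kb, lay from 8089752 to 8418282, between peaks that scored 158.84 and 51.53. The third, of 314 kb, lay from 22401694 to 22715730 near the centromere, and began at a tied peak 1053 bp wide. These were followed by 283.1 kb from 4692902 to 4975958 and by 279.6 kb from 9967899 to 10247475.

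Of the 10 longest stretches without a peak, 3 lay between 5969596 and 6782949, with lengths of 240.0 kb from 5969596, 231.6 kb from 6257438 and 237 kb from 6545998. Another 2 lay between 13230340 and 13895107, with lengths of 239.7 and 234.3 kb. Together the 10 stretches made up 2.73 Mb, or 11.8% of the arm. Before the first peak lay 128.2 kb without a peak at the telomere. The stretch between the last peak and the centromeric end of the arm was not measured, since arm length was counted to that peak. The longest stretches named here are therefore the longest between peaks. Since read depth and mappability are not known from the list, a stretch without a peak is one where the caller listed none, and not one shown to be free of the factor.

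Lone peaks scored lower in the median than all peaks of the arm, though some scored high. On 3L, 37 peaks (4.97%) had no other peak within 50 kb on either side. Their median score was 284.4 and their median width 478 bp, against 440.2 and 526 bp over all peaks of 3L. Scores under 100 were held by 21.6% of them, against 18.7%. The tied score was held by 2 of them (5.41%), against 8.19% of all peaks. These 2 lay from 17414181 to 17414916, 736 bp wide, and from 22400641 to 22401693, 1053 bp wide, the peak that borders the third-longest stretch. The next highest scored 2475.72, from 11421421 to 11421881, and 2110.83, from 11357880 to 11359035. These 2 were neighbours, 62.4 kb apart.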

How the data were processed

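One peak list, of the Trl ChIP sample, was analysed. The caller was MACS, per the file headers. Reads had been aligned with Bowtie to BDGP5, per the submitters' processing notes. The sources used here give no versions, thresholds, duplicate handling, pooling or read depth. The score deposited by the authors for each peak has no stated scale and was used as it stands. Per the labels' protocols, chromatin was fixed in 1.8% formaldehyde for 15 minutes and sonicated for 15 minutes. The growth protocol describes flies, so culture conditions are not known here.

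Peaks with chromosome 3L were selected in pandas 2.3.3 under Python 3.11.15. Statistics used SciPy 1.17.1 and NumPy 2.4.6, and figures used Matplotlib 3.10.9. Starts were converted to 1-based positions. A gap is the number of bases between neighbouring peaks, a run is a set of peaks joined at gaps under 2 kb, and a peak belongs to the window of its midpoint. Arm length was counted to the end of the last peak. These steps were tested on simulated lists with known runs. Each group had 1 sample, so no test was made.

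Named peaks are the 15 highest-scoring (ties by width, then position), the 10 widest and all members of runs of 5 or more. The windows and stretches named are among the 10 fullest and 10 longest. Other peaks, runs, stretches and regions were picked with their values in view. The members and lists were chosen with earlier results of these data known. Planned results on gene starts and GA elements were not run, since no BDGP5 sequence or annotation was used here. The gene table was used only for names and gene order. Of 46 loci listed, 43 were found in it on 3L by symbol.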

Additional observations from a re-analysis of the deposited data

How the results depend on the processing

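Of 25 values recomputed with other settings, 11 stayed within 1.5 times the reported count or length or within the 95% binomial interval of the reported median or share, and 14 moved. The interval counts the peaks, gaps or windows of 1 list as independent, although many peaks lie in runs. It serves only as a yardstick and does not measure a spread between cultures. No test was made, so none gained or lost a call. Keeping the 606 peaks scored 100 or more gave a median width of 574 bp, a median score of 663.1, 28.4% of gaps under 2 kb, and a longest peak-free stretch of 561 kb, from 9757239 to 10318206, which contains 4 peaks scored 60.06 to 89.06. Keeping the highest 50% of scores gave 16.1 peaks per Mb, a median width of 703 bp, a median score of 1372, 25.0% of gaps under 2 kb, the same stretch of 561 kb, and 10 peaks in the fullest 100 kb window. By construction these settings remove low-scoring peaks. Merging peaks under 500 bp apart gave a median width of 594 bp and 16.4% of gaps under 2 kb, since it removes the short gaps. The share of windows without a peak was 39.7% for 50 kb and 3.45% for 200 kb windows. The location of the longest peak-free stretch between peaks thus rests on low-scoring peaks. Joining at gaps under 1 kb or 5 kb gave 138 or 173 runs of 2 or more, in place of 161. Alternatives for arm length from a reference, gene starts and GA elements were not run. No paired analysis was possible because the ChIP and the input are single samples, and none can be omitted. How far low-scoring peaks and peak-free stretches can be read is limited by the unknown depth.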
